A study of Rattus norvegicus with 20 samples.

Results

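The genes described here mark mural cells, the contractile cells around blood vessels: Acta2, Myh11, Myl9, Mylk, Tagln, Cnn1, Lmod1, Des, Rgs5 and Notch3. They were chosen by gene name in the deposited tables, and all 10 were found, among 32907 genes listed in either table. All 10 passed the filter on low values in both tables. The data are bulk RNA sequencing of entire kidneys from adult male Wistar rats of wild-type genotype, aged 10 to 12 weeks, after 28 days of delivery by an osmotic minipump under the skin. Libraries from rats given cyclosporine A (n = 4) were set against libraries from rats given saline (n = 4). Libraries from rats given tacrolimus (n = 6), dosed towards a trough level of 3.5 ng/ml in plasma, were set against those from rats given its solvent, 25% DMSO in 75% PEG (n = 6, called DMSO/PEG vehicle). A target trough level is given for cyclosporine A too, in a doubtful unit, and is not reported here. Cyclosporine A and tacrolimus are calcineurin inhibitors, immunosuppressants used after transplantation, and the study asked how their effects on the kidney differ. The solvent and the deposited table differed between the drugs too, and these effects cannot be told apart.

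Vascular smooth muscle cells ring the renal arteries and arterioles, and pericytes lie along the capillaries and the vasa recta. Contraction starts when calcium and calmodulin activate myosin light chain kinase (Mylk), which phosphorylates the regulatory light chain (Myl9) of smooth muscle myosin (heavy chain Myh11), so that it pulls on alpha smooth muscle actin (Acta2). Transgelin (Tagln), calponin (Cnn1) and leiomodin (Lmod1) bind the actin filament, and desmin (Des) forms intermediate filaments. Rgs5 shortens signalling by G proteins in pericytes and arterial smooth muscle, and Notch3 is the receptor through which these cells read ligands on neighbouring endothelial cells. Calcineurin inhibitors are known to narrow the afferent arteriole. Several of these genes are not confined to vessels: mesangial cells, podocytes and activated fibroblasts can express some of them, and a whole-kidney measurement cannot tell fewer cells of a type from less RNA per cell.

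The genes lie on several chromosomes of the rat genome, at the positions that the tables give, on the build rn6 named in the submitters' processing notes. Acta2 is at chr1:252537615-252550394 (minus strand), Myh11 at chr10:764421-859184 (plus strand), Myl9 at chr3:152857592-152863960 (plus strand) and Mylk at chr11:69013050-69223158 (minus strand). Tagln is at chr8:50222896-50231357 (minus strand), Cnn1 at chr8:23113048-23121761 (plus strand) and Lmod1 at chr13:52147555-52190228 (plus strand). Des is at chr9:82556573-82564294 (plus strand), Rgs5 at chr13:87966758-88003035 (plus strand) and Notch3 at chr7:14138495-14189688 (minus strand). Each value is for the whole gene, per length of its transcripts.

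Many contractile genes are switched on by serum response factor, which binds the CArG box, a motif that begins with CC, ends with GG and has 6 bases of A or T between them. RefSeq promoter entries on the build GRCr8, each spanning 250 bases before to 50 bases after the start site, matched 6 of the 10 genes (Acta2, Mylk, Cnn1, Des, Rgs5 and Notch3). Both strands were searched. The exact box was found in 0 of these 6 entries and in 1.64% of all 33469 entries. A CArG-like match, with at most 1 core base other than A or T, was found in Acta2 alone of the 6 and in 9.42% of all entries. Acta2 held 2 such matches, as did 0.846% of all entries in having 2 or more. Its window is shown because Acta2 is the gene most used to mark these cells. The stretch is chr1:241172528-241172657 on GRCr8, minus strand, begins 154 bases before the start site and is written 5′ to 3′ with the matches in capitals, which begin 134 and 84 bases before the start site.
Acta2: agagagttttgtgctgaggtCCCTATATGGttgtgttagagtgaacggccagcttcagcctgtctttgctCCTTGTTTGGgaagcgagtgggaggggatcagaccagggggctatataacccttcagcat
These matches are a description of the letters, and binding was not measured.

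Values are FPKM, fragment counts scaled by transcript length and library depth, as deposited. Libraries held 30467652 to 34307942 assigned fragments in the cyclosporine A comparison and 31670202 to 39358485 in the tacrolimus comparison. In the cyclosporine A table the mitochondrial share of those fragments was 49.7% to 68.6% with saline and 80.2% to 90.8% with cyclosporine A, and in the tacrolimus table it was 10.5% to 15.9%. Fragments of nuclear genes therefore numbered 10282872 to 17255791 with saline but 2905422 to 6548795 with cyclosporine A, and cyclosporine A replicate 4 was the lowest. The deposited cyclosporine A values count mitochondrial fragments in the total, so most nuclear genes read lower with the drug on that scale. For this reason they were divided by median-of-ratios factors, which make the typical gene equal between libraries, and are called rescaled FPKM. The kidney label was checked against proximal tubule markers, of which all 5 were tested in both tables, with summed levels of 89.4 to 230.9 rescaled FPKM in the cyclosporine A table and 1894 to 2095 FPKM in the tacrolimus table. The labels do not say whether each library came from a different animal, so n counts libraries and p-values measure the spread between these samples.

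Relative to the typical gene, none of the mural cell genes passed the test with cyclosporine A. The test was limma on log2(FPKM + 1) with Benjamini-Hochberg adjustment over all genes, and a gene was called at an adjusted p under 0.05. On rescaled FPKM, 0 of 10 were called, where 0.609% of all 13466 genes tested were. At an unadjusted p under 0.05 there was 1, Des, where 16.2% of all genes were. The median log2 fold change of the 10 genes was 0.09, against 0.00 over all genes tested, with 6 above 0 and 4 below. In none of the 10 did the cyclosporine A libraries lie wholly above or below the saline libraries, which was so for 10.9% of all genes.

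Des had the largest difference relative to its error. Its rescaled FPKM was 1.51, 1.49, 2.07 and 1.32 in saline replicates 1 to 4, and 1.59, 3.65, 3.45 and 3.49 in cyclosporine A replicates 1 to 4. In the drug group 3 of the 4 libraries lay above every saline library, and replicate 1 lay within the saline range. The log2 fold change was 0.61 (SE 0.20, 95% confidence interval 0.16 to 1.06, limma adjusted p = 0.183). Without cyclosporine A replicate 1 it was 0.81, with an adjusted p of 0.0805, the lowest over its alternatives, which ran to 0.368. On deposited FPKM the value was -0.29. Markers of striated muscle, which also makes desmin, were low but had the same libraries above every saline library: the 7 of them, none at 0 throughout, summed to 0.276, 0.131, 0.762 and 0.271 rescaled FPKM with saline and to 0.442, 1.24, 0.881 and 1.37 with cyclosporine A. None of the 7 passed the low-value filter in this table, and their part in the Des values was not tested.

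The regulatory light chain gene Myl9 and the actin-binding Tagln had log2 fold changes of similar size, and their saline and drug ranges overlapped. That of Myl9 was the highest of the 10 on the log2(FPKM + 1) scale, though over the alternatives Lmod1 reached 1.28 and Myl9 1.00. Myl9 was at 8.03, 7.76, 10.1 and 9.77 rescaled FPKM with saline and at 8.40, 11.8, 15.4 and 35.8 with cyclosporine A. Its log2 fold change was 0.73 (SE 0.35, 95% confidence interval -0.04 to 1.51, limma adjusted p = 0.334). Replicate 4 exceeded every other library, and without it the value was 0.35. Tagln was at 11.0, 7.73, 10.7 and 9.81 rescaled FPKM with saline and at 10.6, 19.1, 9.90 and 25.1 with cyclosporine A. Its log2 fold change was 0.58 (SE 0.27, 95% confidence interval -0.01 to 1.18, limma adjusted p = 0.321), and 0.35 without replicate 4. In Tagln, replicates 2 and 4 were high and replicates 1 and 3 lay within the saline range.

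The 2 genes that define contractile smooth muscle, Acta2 and Myh11, were near their vehicle level on average and spread widely with the drug. Acta2 was at 2.64, 3.18, 1.81 and 2.77 rescaled FPKM with saline and at 1.32, 5.84, 2.68 and 1.27 with cyclosporine A. Its log2 fold change was -0.07 (SE 0.33, 95% confidence interval -0.80 to 0.66, limma adjusted p = 0.944). That interval still allows 0.576-fold to 1.57-fold on the log2(FPKM + 1) scale. Myh11 was at 0.762, 0.678, 0.475 and 0.457 rescaled FPKM with saline and at 0.486, 0.792, 0.864 and 0.205 with cyclosporine A. Its log2 fold change was -0.02 (SE 0.15, 95% confidence interval -0.36 to 0.31, limma adjusted p = 0.964). Replicate 4, the lowest library, held 24 fragments of Acta2 and 18 of Myh11. In both genes the drug libraries ranged from below every saline library to above every one.

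Mylk, the kinase gene, had the smallest ratio of highest to lowest library of the 10 in each of the 4 groups, 1.16 with saline and 1.73 with cyclosporine A. It was at 2.35, 2.16, 2.51 and 2.43 rescaled FPKM with saline and at 1.88, 2.82, 1.63 and 2.71 with cyclosporine A. Its log2 fold change was -0.06 (SE 0.15, 95% confidence interval -0.40 to 0.28, limma adjusted p = 0.887). The drug libraries lay on both sides of the saline range, 2 below and 2 above.

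Among the pericyte and signalling genes, Rgs5 had the lowest value of the 10 and a wide interval. Rgs5 was at 4.45, 3.93, 1.79 and 2.27 rescaled FPKM with saline and at 1.68, 4.29, 0.838 and 2.35 with cyclosporine A. Its log2 fold change was -0.37 (SE 0.33, 95% confidence interval -1.10 to 0.36, limma adjusted p = 0.623). The drug values rest on 13 to 77 fragments per library (median 21), against 57 to 202 with saline. Saline itself split, with replicates 1 and 2 high, so the groups overlapped broadly. Notch3 was at 0.417, 0.277, 0.198 and 0.185 rescaled FPKM with saline and at 0.315, 0.405, 0.209 and 0.413 with cyclosporine A, with a log2 fold change of 0.07 (SE 0.10, limma adjusted p = 0.759).

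Cnn1 and Lmod1 were the most thinly covered in this table. Cnn1 rested on 20 to 38 fragments per saline library and 0 to 76 per drug library, and Lmod1 on 5 to 24 and 0 to 36. Cnn1 was at 0.280, 0.451, 0.523 and 0.255 rescaled FPKM with saline and at 0.280, 1.85, 0.876 and 0 with cyclosporine A (log2 fold change 0.24, SE 0.28). Lmod1 was at 0.0771, 0.0804, 0.0413 and 0.0212 with saline and at 0.128, 0.0895, 0.339 and 0 with cyclosporine A (log2 fold change 0.10, SE 0.09). Both genes had 0 fragments in replicate 4 of cyclosporine A, the library with the fewest nuclear fragments. A count of 0 allows up to 3 fragments, which is 0.147 rescaled FPKM for Cnn1 and 0.0491 for Lmod1, a limit that covers counting error only. These log2 fold changes depend on the pseudocount, and by voom they reached 0.92 for Cnn1 and 1.28 for Lmod1, neither called.

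**Figure D1:**
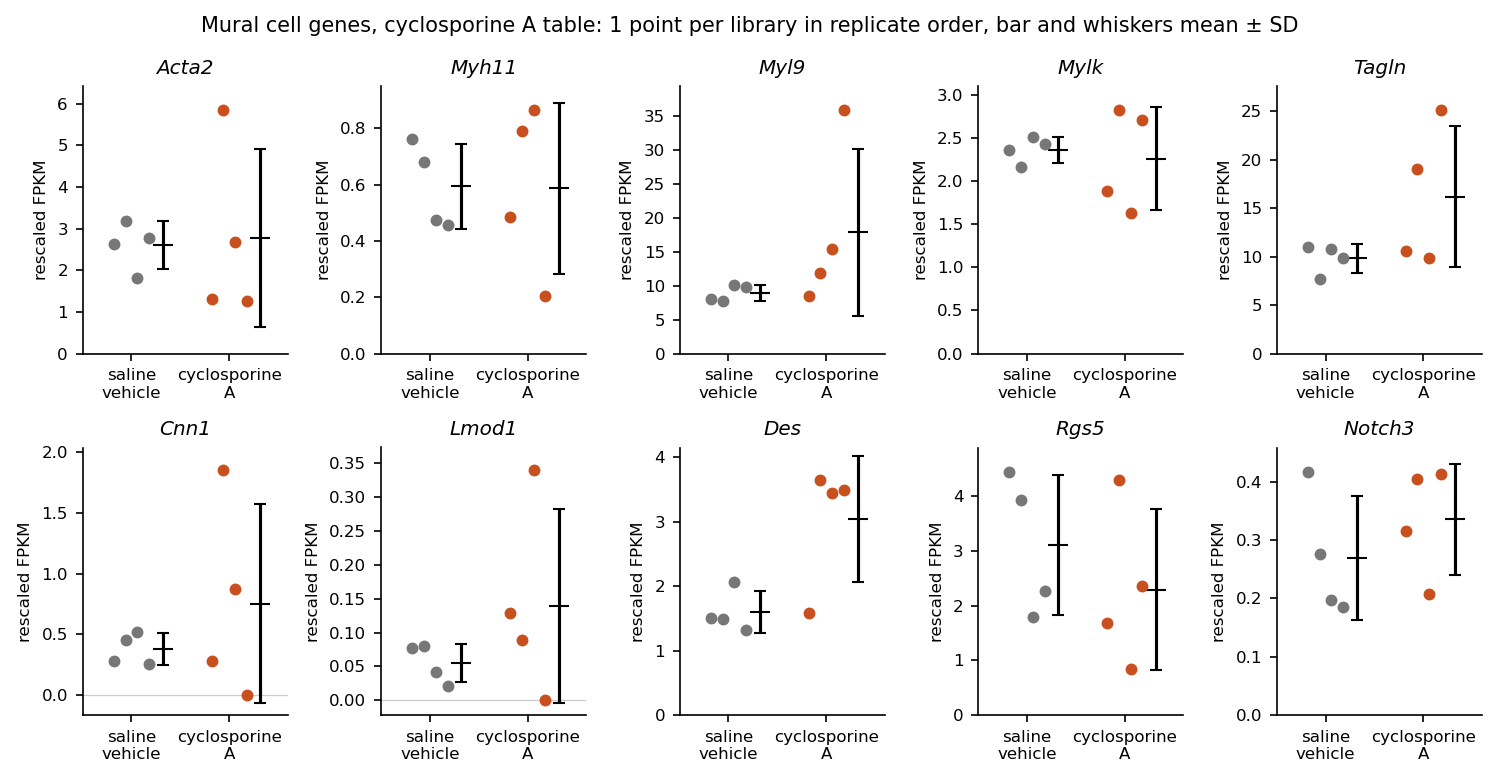
Rescaled FPKM (vertical axes, linear) of the 10 mural cell genes in the 4 saline (grey) and 4 cyclosporine A (orange) libraries, 1 point per library in replicate order, with the mean and SD beside them. Points of the groups overlap in every panel, and the drug libraries are more spread in all but Notch3, as in Myl9 with 8.40 to 35.8 against 7.76 to 10.1.

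For 9 of the 10 genes the cyclosporine A libraries were more spread than the saline libraries on rescaled FPKM. The share of all genes for which this was so was not computed, and the part of nuclear depth was not tested. On deposited FPKM the SD was narrower with the drug for Tagln (4.15 against 5.05 with saline), Rgs5 (1.34 against 2.70) and Mylk (0.572 against 0.850). It was also narrower there for Myh11 and Notch3, and wider for the other genes. The SD of rescaled FPKM was 12.3 with the drug and 1.20 with saline for Myl9, 7.26 and 1.48 for Tagln, 2.14 and 0.573 for Acta2, and 0.593 and 0.152 for Mylk. The SD of Myl9 rests on replicate 4, since the other 3 drug libraries were at 8.40 to 15.4. Notch3 was the exception, with 0.0956 and 0.107. The spread was not wider with the drug in every list, as the summed level of other contractile genes had an SD of 19.8 with cyclosporine A and 39.6 with saline, and that of endothelial markers 4.98 and 7.98. The high and low libraries were not the same from gene to gene: replicate 4 held the highest value of the table in 2 genes (Myl9 and Tagln) and the lowest in 4 (Acta2, Myh11, Cnn1 and Lmod1), and replicate 2 held the highest in 4 (Acta2, Cnn1, Des and Mylk). Replicate 4 also stood apart in markers of other cells that can express some of these genes. Its summed level of the 4 mesangial markers was 27.4 rescaled FPKM against 7.79 to 10.4 in the other 7 libraries, of the 8 fibroblast markers 48.5 against 7.35 to 23.7, of the 5 macrophage markers 25.6 against 6.72 to 15.1, and of the 6 podocyte markers 12.4 against 3.03 to 6.17. All of these markers were detected in the table, none at 0 throughout. Lists closer to the 10 genes, described below, were also highest in replicate 4. Other pericyte genes summed to 9.36 against 1.96 to 5.79, and receptor and RGS genes to 16.4 against 5.72 to 10.2. Replicate 4 was not the highest in endothelial, urothelial, proximal tubule or adipocyte markers. The part of these lists in the Myl9 and Tagln values was not tested.

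On the FPKM as deposited, 4 of the 10 genes were called lower with cyclosporine A and 0 higher. On that scale 80.8% of all genes tested were called lower, so 4 of 10 is fewer than the table as a whole, and the median log2 fold change was -0.49 for the 10 genes against -0.89 for all genes. The genes called were Rgs5 (log2 fold change -1.29, SE 0.33, limma adjusted p = 0.00212), Mylk (-0.99, SE 0.24, adjusted p = 0.00158), Acta2 (-0.95, SE 0.34, adjusted p = 0.0150) and Myh11 (-0.48, SE 0.17, adjusted p = 0.0165). Rgs5 fell from 8.96, 4.97, 2.74 and 3.90 FPKM with saline to 1.05, 3.54, 0.626 and 1.01 with cyclosporine A. Mylk fell from 4.74, 2.73, 3.84 and 4.18 FPKM to 1.18, 2.33, 1.22 and 1.16. For Mylk and Myh11 every drug library lay below every saline library, which was so for 67.8% of all genes. Measured against the median gene, Rgs5, Mylk and Acta2 lay below it and the other 7 above. The direction of Tagln, Cnn1, Des, Notch3 and Myl9 turned with the scale, with deposited log2 fold changes of -0.65, -0.09, -0.29, -0.24 and -0.50.

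**Figure D2:**
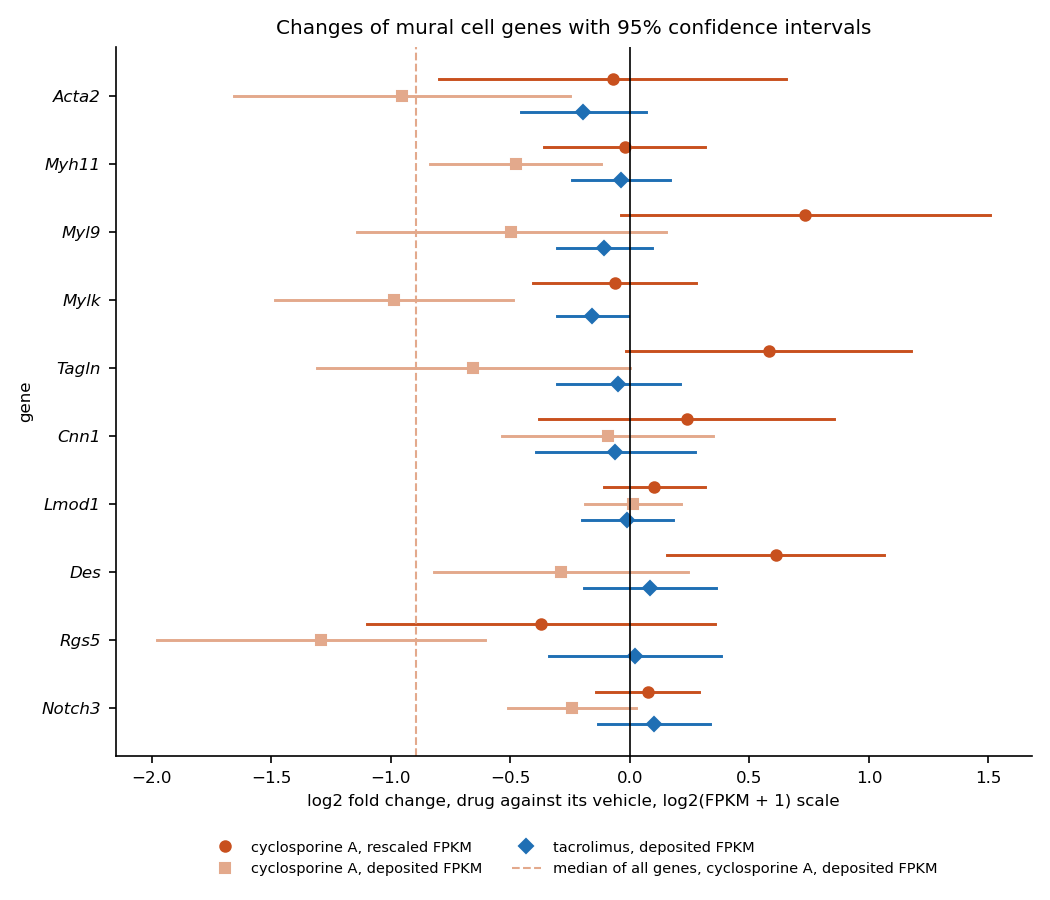
Log2 fold change on the log2(FPKM + 1) scale (horizontal axis) with its 95% confidence interval for each gene, for cyclosporine A on rescaled and on deposited FPKM and for tacrolimus. The dashed line is the median of all genes for deposited cyclosporine A values, at -0.89, and all rescaled intervals except that of Des (0.16 to 1.06) reach 0.

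A ratio of genes within a library does not depend on the scaling. The ratio of Mylk to Myl9, kinase to substrate, was 0.293, 0.278, 0.248 and 0.249 in the saline libraries and 0.224, 0.239, 0.106 and 0.0758 in the cyclosporine A libraries. Every drug library was below every saline library, while neither gene alone was called on rescaled FPKM. In the tacrolimus table the same ratio was 0.510 to 0.797 with vehicle (median 0.673) and 0.564 to 0.701 with tacrolimus (median 0.650), and the groups overlapped. The ratio of Rgs5 to Tagln was 0.167 to 0.508 with saline and 0.0847 to 0.225 with cyclosporine A, overlapping. Of the 6 ratios computed, these were singled out after their values were seen, so they are a description without a test. The ratios not shown overlapped between saline and cyclosporine A. A ratio shows that 2 genes differ unequally, not which of them differs.

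With tacrolimus, none of the mural cell genes passed the test, and here the intervals were narrower for 9 of the 10, the exception being Notch3. By limma, 0 of 10 were called, where 0.303% of all 15493 genes tested were. At an unadjusted p under 0.05 there was 1, Mylk, where 8.58% of all genes were. The median log2 fold change was -0.04, against 0.00 over all genes, with 3 above 0 and 7 below. The tacrolimus and vehicle libraries overlapped in all 10, where 0.975% of all genes had groups that did not. The widest 95% confidence interval, that of Rgs5, ran from 0.791-fold to 1.30-fold on the log2(FPKM + 1) scale.

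Acta2 and Mylk had the lowest log2 fold changes. Acta2 ranged from 14.0 to 21.0 FPKM with vehicle (median 19.5) and from 11.6 to 18.6 with tacrolimus (median 16.4). The means were 18.4 ± 2.97 (SD, n = 6) and 16.0 ± 2.44 (SD, n = 6), with a log2 fold change of -0.19 (SE 0.12, 95% confidence interval -0.46 to 0.07, limma adjusted p = 0.722). Above every tacrolimus library lay 3 vehicle libraries, and 1 tacrolimus library, replicate 3, lay below every vehicle library. Mylk ranged from 17.5 to 21.7 FPKM with vehicle (median 20.5) and from 16.4 to 20.5 with tacrolimus (median 17.4). Its log2 fold change was -0.16 (SE 0.07, 95% confidence interval -0.30 to -0.01, limma adjusted p = 0.522). Below every vehicle library lay 3 tacrolimus libraries, and above every tacrolimus library lay 3 vehicle libraries.

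Myl9 ranged from 25.8 to 35.2 FPKM with vehicle (median 29.8) and from 24.1 to 31.0 with tacrolimus (median 29.5), a log2 fold change of -0.11 (SE 0.09, limma adjusted p = 0.836). Myh11 ranged from 2.99 to 4.24 (median 3.96) and from 2.98 to 4.44 (median 3.69), a log2 fold change of -0.04 (SE 0.10). Tagln, the most abundant of the 10, ranged from 37.7 to 59.0 FPKM with vehicle (median 48.8) and from 40.1 to 53.5 with tacrolimus (median 45.4), a log2 fold change of -0.05 (SE 0.12). In Tagln the vehicle libraries fell into 3 high (54.9 to 59.0) and 3 low (37.7 to 42.7), a wider spread than with the drug.

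In the remaining genes each log2 fold change was smaller than its standard error. Cnn1 averaged 1.59 ± 0.731 FPKM for vehicle libraries and 1.41 ± 0.207 for tacrolimus libraries (SD, n = 6 each), and Lmod1 averaged 0.586 ± 0.195 and 0.573 ± 0.164. Des had means of 5.62 ± 1.32 and 5.96 ± 0.893 (log2 fold change 0.08, SE 0.13), and its vehicle libraries 2 and 3, at 7.32 and 7.30, exceeded every other library. Those libraries were also the high ones for Acta2, Myl9 and Tagln. Rgs5 had means of 25.4 ± 6.38 and 25.6 ± 4.92 (log2 fold change 0.02, SE 0.17). Notch3 had the highest log2 fold change of the 10, 0.10 (SE 0.11, limma adjusted p = 0.883), with 3.94 ± 0.790 and 4.26 ± 0.473 FPKM.

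**Figure D3:**
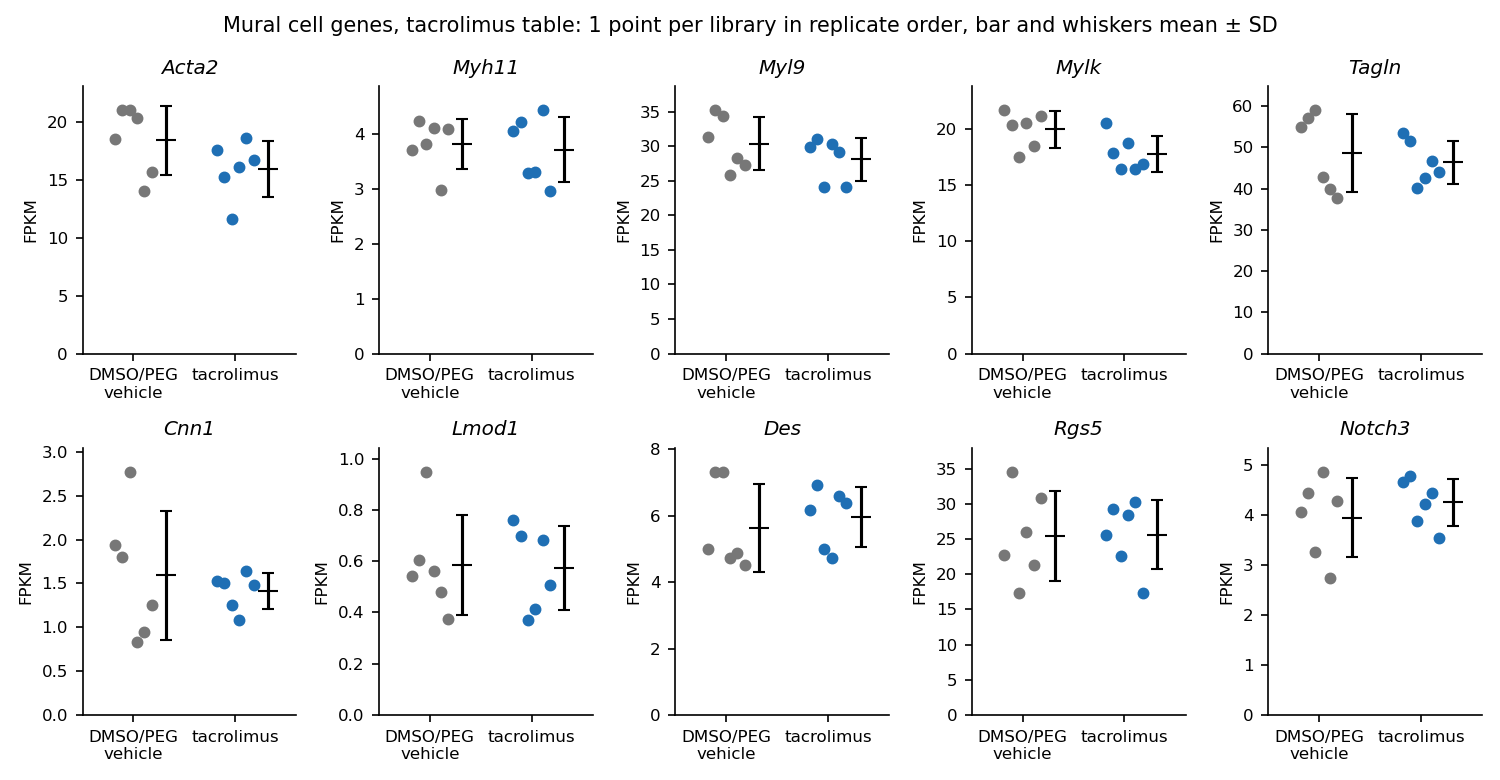
FPKM (vertical axes, linear from 0) of the 10 mural cell genes in the 6 DMSO/PEG vehicle (grey) and 6 tacrolimus (blue) libraries, 1 point per library in replicate order, with the mean and SD beside them. The groups overlap in every panel, and Mylk shows the tightest clusters, 17.5 to 21.7 against 16.4 to 20.5.

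The difference between the drugs, the change with cyclosporine A on rescaled FPKM minus the change with tacrolimus, was tested for each gene. None of the 10 was called, where 1.63% of the 13400 genes tested in both tables were. At an unadjusted p under 0.05 there were 3 (Myl9, Tagln and Des), where 16% of all genes were. Their differences on the log2 scale were 0.84 (SE 0.36, adjusted p = 0.281), 0.63 (SE 0.29, adjusted p = 0.312) and 0.53 (SE 0.24, adjusted p = 0.292). The differences of Rgs5, Cnn1, Lmod1, Mylk and Myh11 were -0.39 (SE 0.37), 0.30 (SE 0.32), 0.11 (SE 0.13), 0.09 (SE 0.17) and 0.01 (SE 0.18). The log2(FPKM + 1) scale narrows changes at the low levels of Cnn1, Lmod1 and Myh11 in the cyclosporine A table. Over the alternatives the difference ran from 0.02 to 1.12 for Lmod1 and from -0.03 to 0.86 for Cnn1, neither called. For Acta2 the difference was 0.12 with a 95% confidence interval of -0.63 to 0.88, so the data allow a difference in either direction. For Notch3 the difference was -0.03 (interval -0.33 to 0.27), on a scale that narrows both changes and intervals at its low level in the cyclosporine A table. With a pseudocount of 0.1 it was 0.12 (SE 0.35) and with voom 0.27 (SE 0.40). With the deposited cyclosporine A values, Rgs5 (-1.31), Mylk (-0.83) and Myh11 (-0.44) were called, where 75.1% of all genes were.

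Within a table, levels per length can be ordered. In the tacrolimus table the order by mean was the same in vehicle and drug: Tagln, Myl9, Rgs5, Mylk, Acta2, Des, Notch3, Myh11, Cnn1, Lmod1. Tagln stood clear of Myl9, Acta2 of Des, and Myh11 of Cnn1 in both groups, while ranges overlapped between neighbours from Myl9 to Acta2 and from Des to Myh11. In the saline group Tagln (9.82 ± 1.48 rescaled FPKM, SD, n = 4) and Myl9 (8.92 ± 1.20) overlapped and stood clear of the rest, and Lmod1 (0.0550 ± 0.0287) was the lowest. With cyclosporine A, Myl9 (17.8 ± 12.3) had the highest mean, but overlapped Tagln (16.2 ± 7.26). Des held the sixth place with saline, where it did not overlap its neighbours, and the third place with cyclosporine A, where it overlapped Acta2.

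Across the 12 libraries of the tacrolimus table the genes differed in how closely each followed the others. Pearson's r of each gene with the mean of the other 9 on the log2 scale was 0.79 for Tagln, 0.76 for Myh11, 0.75 for Myl9 and 0.67 for Acta2 (Spearman's rho 0.83, 0.69, 0.74 and 0.59). It was 0.66 for Lmod1, 0.57 for Des and 0.50 for Cnn1, and 0.39 for Notch3, 0.21 for Mylk and 0.20 for Rgs5. Without the 2 libraries farthest from the median, Tagln was at 0.73 and Rgs5 at 0.01. Within tacrolimus alone (n = 6) Notch3 was at 0.86 and Rgs5 at 0.54, beside 0.57 for Acta2, 0.79 for Myl9 and 0.87 for Tagln. Within vehicle Notch3 was at 0.30 and Rgs5 at -0.01, beside 0.82, 0.73 and 0.78, so the order of the genes differed between the groups. These values share the libraries and their scaling and are a description. The genes outside the set with at least 5 FPKM on average whose pattern was most like the mean of the 10 were Tmem184a (r = 0.88), Vamp2 (0.86), Tpm1 (0.86, a tropomyosin of the actin filament), Rcsd1 (0.83) and Icam2 (0.83), out of 8997 candidates. In the cyclosporine A table, over 8 libraries and 4408 candidates, they were RGD1559786 (0.91), Mdm2 (0.90), LOC100361537 (0.87), Tmem120a (0.86) and Phkg2 (0.85), so no gene was named in both tables.

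Other contractile and smooth muscle genes gave a similar picture for tacrolimus and a more varied one for cyclosporine A. Of 23 entries tested with cyclosporine A on rescaled FPKM, 0 were called, 5 had an unadjusted p under 0.05, and the median log2 fold change was 0.19 against 0.00 for all genes. Smoothelin (Smtn, found under 2 identifiers) went from 4.98 ± 0.947 to 2.80 ± 0.288 rescaled FPKM (SD, n = 4 each) in its better covered entry, a log2 fold change of -0.64 (limma adjusted p = 0.0806). By voom it was called, at -0.88 (adjusted p = 0.0397, with 0.000473 to 0.214 over the alternatives). Tpm1 went the other way, from 30.9 ± 2.78 to 46.3 ± 7.94, a log2 fold change of 0.56 (limma adjusted p = 0.0894). In each of the pair the drug libraries lay wholly outside the saline range. In the difference between the drugs the better covered Smtn entry was at -0.57 (SE 0.18). The other Smtn entry had the opposite sign, 0.16 (SE 0.47), and neither was called. Tpm1 was called in the difference between the drugs, at 0.65 (SE 0.15, adjusted p = 0.0426), the single call among 23 entries of this list there. That call was lost in 11 of the 20 fits that left out 1 library and with no low-value filter, and its direction turned on deposited FPKM, at -0.65, with adjusted p over the alternatives of 0.0285 to 0.123. With tacrolimus, 0 of 27 entries were called and 0 had an unadjusted p under 0.05. The lowest p there were those of Actg2, a visceral smooth muscle actin, at -0.27 (limma adjusted p = 0.709), and Tpm1 at -0.09 (adjusted p = 0.711).

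On deposited cyclosporine A values, where 80.8% of all genes were called lower, 13 of these 23 contractile entries were called lower. So were 7 of 8 other pericyte genes, 8 of 12 Notch pathway entries, 8 of 10 receptor and RGS genes and 9 of 10 non-muscle or striated relatives, the lists described next. The direction of Tpm1, and of Mcam, Hes1, Rgs2 and Vim below, turned on that scale, with log2 fold changes of -0.74, -0.42, -0.94, -0.59 and -0.71, all called lower there.

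Other pericyte genes were low in the cyclosporine A table. Of 8 tested on rescaled FPKM, 0 were called and 1 had an unadjusted p under 0.05, with a median log2 fold change of -0.09. Higd1b, a mitochondrial protein gene used to mark pericytes, was at 0.361 to 0.629 rescaled FPKM with saline and at 0 to 0.547 with cyclosporine A, a log2 fold change of -0.39 (limma adjusted p = 0.241). It was called without cyclosporine A replicate 2 (-0.54, adjusted p = 0.0468, with 0.00122 to 0.479 over the alternatives), and was -1.80 with a pseudocount of 0.1. Mcam, an adhesion molecule gene, had 0.20 (adjusted p = 0.467). With tacrolimus, 0 of 9 were called and 0 had an unadjusted p under 0.05. Pdgfrb, the receptor that keeps pericytes on vessels, went from 8.74 ± 1.70 to 10.6 ± 1.73 FPKM (SD, n = 6 each), a log2 fold change of 0.25 (limma adjusted p = 0.645), and Mcam had -0.20 (adjusted p = 0.648).

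The Notch pathway around Notch3 was not called in either table. With cyclosporine A on rescaled FPKM, 0 of 12 entries were called and 0 had an unadjusted p under 0.05, with Hes1, a target gene, at 0.22 (limma adjusted p = 0.425) and the ligand gene Dll1 at -0.13 (adjusted p = 0.432). With tacrolimus, 0 of 13 were called and 3 had an unadjusted p under 0.05. The feedback gene Nrarp went from 1.85 ± 0.477 to 2.63 ± 0.270 FPKM (SD, n = 6 each), a log2 fold change of 0.37 (limma adjusted p = 0.221). The target gene Hey1 had the opposite sign, -0.27 (adjusted p = 0.450).

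Receptors for vasoconstrictors and other RGS genes also gave 0 calls in 10 tested in each table. With cyclosporine A the angiotensin receptor gene Agtr1b was at 0.149 to 0.199 rescaled FPKM with saline and at 0 to 0.0671 with the drug, a log2 fold change of -0.20 (limma adjusted p = 0.183). At this low level the value is set by the pseudocount: with 0.1 it was -1.23 and by voom -2.93, neither called. Rgs2 was at 0.44 (adjusted p = 0.444). With tacrolimus, 3 had an unadjusted p under 0.05, and the adrenergic receptor gene Adra1d, at 0.569 ± 0.215 and 0.984 ± 0.217 FPKM (SD, n = 6 each), had a log2 fold change of 0.34 (adjusted p = 0.219). Rgs3 was at -0.16 (adjusted p = 0.458).

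Non-muscle and striated relatives of the 10 genes were checked because reads can be shared between close copies. On rescaled FPKM 0 of 10 tested entries were called with cyclosporine A, with Myh14, a non-muscle myosin, at -0.83 (limma adjusted p = 0.127) and vimentin (Vim) at 0.50 (adjusted p = 0.170). With tacrolimus, 0 of 12 were called. The cytoplasmic actin gene Actg1 was at 344 to 401 FPKM with vehicle and at 264 to 336 with tacrolimus, with no overlap, a log2 fold change of -0.29 (limma adjusted p = 0.147). By voom Actg1 was called, at -0.32 (adjusted p = 0.0338, with 0.0338 to 0.353 over the alternatives), and Myh10 was at -0.16 (adjusted p = 0.425). How the authors' counting split reads among actin genes is not given in the sources used here, so Acta2 carries that uncertainty. In the tacrolimus table the 7 striated muscle markers summed to 1.31 to 5.57 FPKM with vehicle and 0.577 to 1.11 with tacrolimus, with no overlap. Vehicle replicate 3 held the 5.57, and the other vehicle libraries were at 1.31 to 1.73. The part of these markers in the values of the 10 genes was not tested.

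Levels of markers of other cells are given here for the same libraries. Urothelial markers, all 7 of them detected, summed to 3.93 to 14.8 rescaled FPKM with saline and 10.4 to 20.2 with cyclosporine A. Saline replicate 1 held the 14.8, and the other saline libraries were at 3.93 to 4.49. Of the 5 urothelial markers tested, 1 was called higher, 4 had an unadjusted p under 0.05 and the median log2 fold change was 0.77. The gene called was Upk1a, a uroplakin gene, which rose from 1.28 ± 0.533 to 5.42 ± 0.843 rescaled FPKM (SD, n = 4 each), a log2 fold change of 1.51 (limma adjusted p = 0.0197). That call was lost without saline replicate 3 or 4, with no low-value filter, with the replicate block and on deposited FPKM, where the value was 0.57 (adjusted p over the alternatives 0.00403 to 0.0930). Of the 5 proximal tubule markers, 2 had log2 fold changes above 0 and 3 below, down to -0.58, with a median of -0.01. At an unadjusted p under 0.05 there were 4. The 1 called was the glucose transporter gene Slc5a2, which rose from 0.278 ± 0.168 to 1.45 ± 0.424 rescaled FPKM (log2 fold change 0.93, limma adjusted p = 0.0386). Its call was lost without any 1 library other than cyclosporine A replicate 4, with a pseudocount of 0.1 (2.09), with no low-value filter and with the replicate block (adjusted p over the alternatives 0.00896 to 0.129). Endothelial markers, 9 of 10 found, summed to 25.6 to 43.9 with saline and 18.7 to 29.4 with the drug. Their median log2 fold change was -0.10, and 1 of the 9, Plvap, had an unadjusted p under 0.05. Plvap, a gene of fenestrated endothelium, went from 14.2 ± 6.68 to 2.64 ± 1.19 rescaled FPKM (SD, n = 4 each), a log2 fold change of -1.96 (limma adjusted p = 0.0673), and the other 8 lay between -0.34 and 0.24. None of the 6 podocyte, 6 fibroblast and 4 mesangial markers tested was called with cyclosporine A. Their median log2 fold changes were 0.35, 0.33 and 0.18, and 2, 1 and 1 had an unadjusted p under 0.05. In the tacrolimus table fibroblast markers summed to 171 to 241 FPKM with vehicle and 141 to 215 with tacrolimus. Of these 8 markers 0 were called, all had log2 fold changes below 0 (median -0.28) and 3 had an unadjusted p under 0.05. Mesangial markers summed to 44.6 to 59.6 and 41.2 to 64.4, and macrophage markers to 58.0 to 131.0 and 48.3 to 75.0. Vehicle replicate 2 held the 131.0 of macrophage markers, and the other vehicle libraries were at 58.0 to 67.4. Adipocyte markers, 5 of 5 found, summed to 34.4 to 85.5 FPKM with vehicle and 23.5 to 56.5 with tacrolimus. All 5 had log2 fold changes below 0 (median -0.84), and 1 was called lower: Ucp1, the uncoupling protein of brown fat, fell from 15.1 ± 7.73 to 0.619 ± 0.984 FPKM (SD, n = 6 each), a log2 fold change of -3.33 (limma adjusted p = 0.000844). In the cyclosporine A table adipocyte markers summed to 18.2 to 25.3 rescaled FPKM with saline and 12.5 to 22.5 with the drug. Their part in the values of the 10 genes was not tested.

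**Figure D4:**
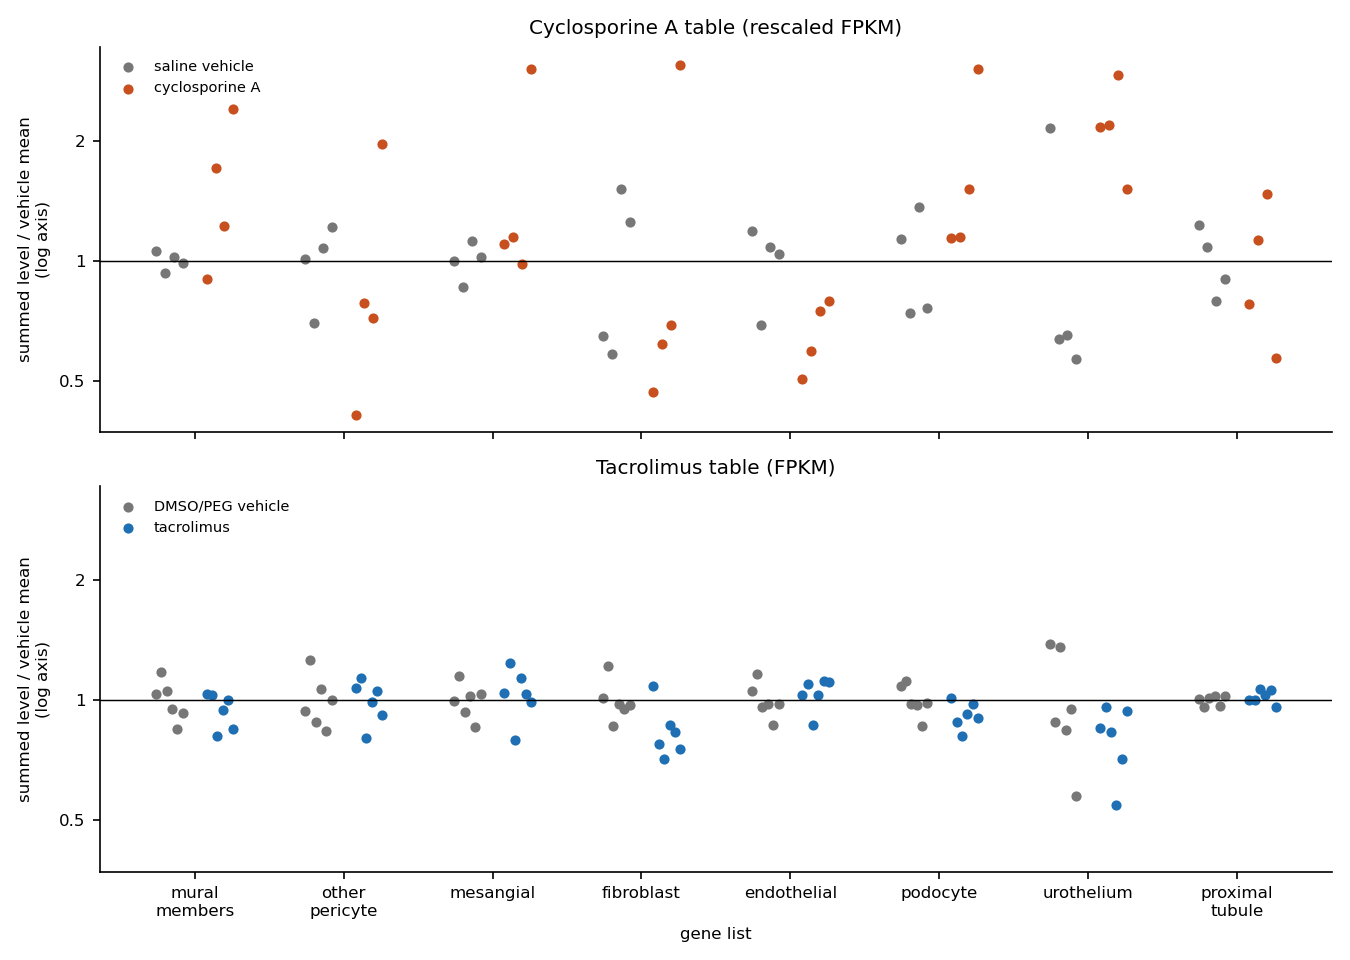
Summed FPKM of the 10 mural cell genes and of marker lists, each divided by its vehicle mean (vertical axis, log scale), 1 point per library, for the cyclosporine A table (top, rescaled FPKM) and the tacrolimus table (bottom). Cyclosporine A replicate 4 is the highest point of the mural, other pericyte, mesangial, fibroblast and podocyte lists.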

How the data were processed

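RNA sequencing of whole kidneys gave 20 libraries, grouped by the treatment label. Per the submitters' processing notes, HISAT2 and the build rn6 were used; the counting program, strand setting and annotation release are not given in the sources used here. The authors deposited FPKM for each drug with its vehicle. Values above 0 correspond to whole fragments (within 0.001) with the listed gene length for 74.1% of values in the cyclosporine A table and 100.0% in the tacrolimus table. In the former, 4445 of 18892 detected genes, among them Rgs5, Tagln, Mylk and Myh11, needed a shorter length. The deposited cyclosporine A values are relative to all fragments, while the tacrolimus values follow median-of-ratios factors. The former were divided by such factors over 12435 genes with values above 0 in every library.

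Each table was fitted with limma 3.58.1 (R 4.3.3) on log2(FPKM + 1) with an empirical Bayes trend. This scale understates changes of low genes. Genes were tested if the equivalent of 10 fragments at median depth was reached in at least n libraries (n, the smaller group) and 15 in total, which kept 13466 and 15493 genes. The difference between drugs used each fit's own error with Satterthwaite degrees of freedom. The fits were tested on simulated data. All 10 genes are named in every comparison, and other gene lists by their calls or their 2 smallest p-values (Smtn, Tpm1 and the like). Of the cell type marker lists, Plvap, Ucp1, Upk1a, Slc5a2 and Pi16 were named after their values were seen. The genes and lists were chosen with earlier results of these data known. Symbols Mrtfb, Prkg1 and Pecam1 were not matched and are not analysed here, and 1 further marker list is not reported here. Alternatives were the scaling, pseudocount, filter, voom with quality weights on recovered fragments, a replicate block and leaving out each library. Depths are given with the results.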

Additional observations from a re-analysis of the deposited data

Results flagged for a closer look

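Among the 40 gene and group combinations examined (10 genes in 4 groups), 1 library stood apart from the rest of its group. Des in cyclosporine A replicate 1 was at 1.59 rescaled FPKM, while the other 3 cyclosporine A libraries were at 3.45 to 3.65. About 1 in 20 such groups shows a gap of this size by chance. Without that library the log2 fold change of Des was 0.81 in place of 0.61, and it was not called either way (limma adjusted p = 0.0805 and 0.183, with 0.0805 to 0.368 over all alternatives).

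Tpm1, a tropomyosin gene outside the 10, differed between the drugs: its change with cyclosporine A minus its change with tacrolimus was 0.65 on the log2 scale (SE 0.15, adjusted p = 0.0426). The cyclosporine A value was 0.56 and the tacrolimus value -0.09, neither called on its own. The call was lost in 11 of the 20 fits that left out 1 library and with no low-value filter, and the difference turned to -0.65 on deposited cyclosporine A values (adjusted p over the alternatives 0.0285 to 0.123). Drug, solvent and table cannot be told apart in this difference.

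Plvap, an endothelial marker, also differed between the drugs, at -2.12 on the log2 scale (SE 0.42, adjusted p = 0.0383), with -1.96 for cyclosporine A and 0.16 for tacrolimus, neither called on its own. The call was lost without saline replicate 1, 3 or 4, without cyclosporine A replicate 1, 2 or 3, with no low-value filter and with voom (adjusted p over the alternatives 0.000225 to 0.119).

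Among the other marker lists, 3 genes had a higher change with cyclosporine A than with tacrolimus. Upk1a, a urothelial marker, differed by 1.66 (SE 0.27, limma adjusted p = 0.00450), and of the alternatives run its call was lost only on deposited FPKM (0.73, adjusted p = 0.0564). Slc5a2, a proximal tubule marker, differed by 0.87 (SE 0.17, adjusted p = 0.0281), lost without saline replicate 1, 3 or 4, without cyclosporine A replicate 1, with no low-value filter and on deposited FPKM, where it was 0.40 (adjusted p over the alternatives 0.00391 to 0.0973). In its list Slc5a12 had the same sign (0.56), and Cubn (-0.64), Lrp2 (-0.60) and Slc34a1 (-0.04) had the opposite sign, none of them called. Pi16, a fibroblast marker, differed by 1.04 (SE 0.25, adjusted p = 0.0410), lost in 13 of the 20 fits that left out 1 library, with no low-value filter, with the replicate block and on deposited FPKM, where it was 0.42 (adjusted p over the alternatives 0.0171 to 0.159).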

How the results depend on the processing

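None of the 10 mural cell genes was called with cyclosporine A on rescaled FPKM, with tacrolimus or in the difference between the drugs, and this held in each alternative except the deposited cyclosporine A scale, which gave 4 and, for the difference, 3. That scale carries the mitochondrial share in its total. Leaving out any library gave 0 in all 3 comparisons.

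The number of all genes called with cyclosporine A (82) was 10911 on deposited FPKM, 1 with no filter, 277 with voom and 6 with the replicate block, and 1 to 140 when a library was left out (1 without saline replicate 4, 140 without cyclosporine A replicate 4). For tacrolimus (47) it was 121 with voom and 44 with the replicate block, and 36 to 49 with a library left out. For the difference (218) it was 10068 on deposited FPKM, 135 with no filter, 330 with voom and 180 with the replicate block, and 27 to 272 with a library left out, lowest without saline replicate 4. The replicate numbers did not pair the libraries: same-numbered deviations correlated at -0.150 to 0.213 in the cyclosporine A table and at -0.151 to 0.182 in the tacrolimus table. The replicate block left 0 of the 10 genes called in each comparison.

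Log2 fold changes that turned sign were as follows, and the cause was not tested. With cyclosporine A they were Tagln -0.65, Cnn1 -0.092, Des -0.29, Notch3 -0.24 and Myl9 -0.50 on deposited FPKM, Myh11 0.0043 and Mylk 0.0042 scaled to nuclear fragments, and Acta2 0.19 and Myh11 0.18 with voom. With tacrolimus they were Tagln 0.025, Cnn1 0.063 and Lmod1 0.16 with voom. In the difference they were Acta2 -0.76, Myh11 -0.44, Tagln -0.61, Cnn1 -0.032, Des -0.37, Myl9 -0.39 and Mylk -0.83 on deposited FPKM, Myh11 -0.076 and Notch3 0.12 with a pseudocount of 0.1, and Notch3 0.27 with voom. Leaving out a library turned Acta2 (-0.41 to 0.12), Cnn1 (-0.036 to 0.47), Myh11 (-0.11 to 0.10) and Mylk (-0.14 to 0.035) with cyclosporine A. It turned Cnn1 (-0.15 to 0.058), Lmod1 (-0.050 to 0.051), Myh11 (-0.091 to 0.011), Rgs5 (-0.078 to 0.12) and Tagln (-0.11 to 0.012) with tacrolimus, and Acta2 (-0.21 to 0.32), Myh11 (-0.070 to 0.14) and Notch3 (-0.079 to 0.051) in the difference. Among the other named genes, Tpm1 -0.74, Mcam -0.42, Hes1 -0.94, Rgs2 -0.59 and Vim -0.71 turned sign with cyclosporine A on deposited FPKM and were called lower there, and Tpm1 -0.65 did in the difference. With voom, Smtn with cyclosporine A and Actg1 with tacrolimus became called. Low nuclear depth limits the cyclosporine A comparison, most for Cnn1 and Lmod1.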
